A study of Homo sapiens with 6 samples.

Results

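The MCM (minichromosome maintenance) genes were examined in NCI-H520, a cell line established from a human squamous carcinoma of the lung. Cells received either phosphate-buffered saline (PBS) or 2 µM cisplatin, which crosslinks DNA through its platinum atom, and were collected at 48 h. The family was taken as 10 genes by symbol, of 61552 genes listed: MCM2, MCM3, MCM4, MCM5, MCM6 and MCM7, which form 1 ring, and MCM8, MCM9, MCM10 and MCMBP, which are not part of it. All 10 were among the 15063 genes that passed the low-count filter. Each group held 3 RNA sequencing libraries, all from cells that the labels give as WT, grown with 15% fetal bovine serum. Whether the replicates were grown separately is not in the labels, so each p-value rests on a spread between libraries that may be technical.

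Before S phase, the ring proteins MCM2 to MCM7 are loaded onto DNA at replication origins, the step called licensing. The ring stays inactive until the GINS complex and CDC45 join it, after which it unwinds the parental strands ahead of the polymerases. MCM10 assists that activation, MCMBP binds ring subunits and helps keep a supply of newly made ones, and MCM8 and MCM9 form a separate helicase used in recombination and in the repair of DNA crosslinks. Ring genes are well-known targets of E2F transcription factors, and their mRNA rises as cells pass from G1 into S phase. In bulk RNA, a smaller share of cells in one phase and less mRNA per cell cannot be told apart.

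Libraries held 9121180 to 16724285 expected counts. Mitochondrially encoded genes took 4.99% ± 0.971 of them under PBS (SD, n = 3) and 3.65% ± 0.443 under cisplatin, and the part of this in the results was not tested. The labelled cell type was checked against 6 squamous markers, of which SOX2 was abundant (309 CPM under PBS, counts scaled by library size), KRT5 was low (5.42 CPM) and DSG3 had 0 counts in every library. TP63 had 0 to 3 counts per library. Of 4 fibroblast markers 1 was tested, COL1A1, and their summed level was 10.4 to 15.3 CPM under PBS and 23.0 to 24.5 under cisplatin; of 4 leukocyte markers PTPRC and CD3E had 0 counts in every library and the sum was 0.976 to 1.23 and 0.445 to 0.661 CPM, and the 3 endothelial markers summed to under 1 CPM in each library. The part of these in the results was not tested.

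Ring mRNAs were present at unequal levels. TPM values (transcript abundance, scaled by length and by library) can be set beside each other between genes, and under PBS MCM7 stood highest at 314 ± 42.2 TPM (SD, n = 3), above every other member in every library. MCM2 at 153 ± 29.5 TPM and MCM3 at 149 ± 24.6 TPM came next and overlapped each other in library range. MCM4 had 84.5, 78.8 and 138 TPM in the 3 PBS libraries, and its range overlapped that of MCM3. MCM6 (59.0 ± 7.1 TPM) and MCM5 (57.5 ± 2.39 TPM) lay below MCM4 and overlapped each other. The highest ring mRNA was thus 5.08 to 5.82 times the lowest in PBS libraries, and 5.17 to 5.42 times in cisplatin libraries, although the assembled ring holds 1 copy of each protein.

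The genes outside the ring were all lower than any ring gene in TPM. MCMBP, the ring-binding factor, had 29.9 ± 4.01 TPM under PBS. MCM10 (19.5 ± 3.21 TPM) and MCM8 (18.4 ± 2.04 TPM) overlapped, and MCM9 was lowest at 4.14 ± 0.356 TPM. MCM8 and MCM9 act as partners, and every library held more MCM8 than MCM9 mRNA. Under cisplatin the order was the same except within 2 neighbouring pairs, MCM5 with MCM6 and MCM8 with MCM10, which exchanged places.

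**Figure D1:**
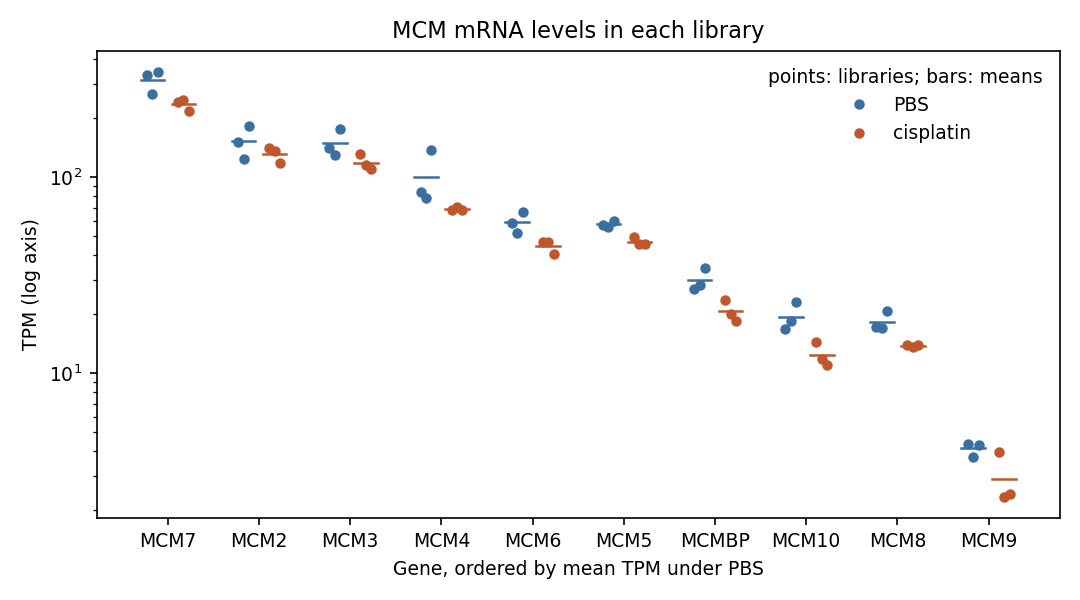
TPM of the 10 MCM genes on a log axis, ordered by their mean under PBS, with 1 point per library (blue PBS, orange cisplatin) and a bar at the mean of 3. MCM7 lies above all others, between 266 and 345 TPM under PBS, and MCM9 lies at the bottom, between 3.73 and 4.37 TPM.

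After cisplatin, 9 of the 10 MCM genes fell: MCM3, MCM4, MCM5, MCM6 and MCM7 of the ring, and MCM8, MCM9, MCM10 and MCMBP outside it. None rose, and MCM2 did not pass the test. The falls were modest: MCM3 fell by 15.0% and MCM9, with the largest change in counts, fell by 39.5%. A lower call was made for 19.3% of all tested genes (edgeR's quasi-likelihood test, adjusted p under 0.05 by Benjamini-Hochberg over all 15063), and a call in either direction for 38.2%. As a median, log2 fold change was -0.29 over the 6 ring genes and -0.41 over the other 4, with -0.00035 over all tested genes. All 3 cisplatin libraries lay below all 3 PBS libraries in CPM for the same 9 genes, against 24.5% of all tested genes (49.7% when either direction is counted).

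MCM4 (ENSG00000104738; chromosome 8, 47960185 to 47978160 in GRCh38, from GENCODE 29) had the largest fall in the ring. Its CPM were 159, 150 and 190 under PBS and 118, 118 and 112 under cisplatin. The cisplatin libraries were close together and well below the lowest PBS library, and PBS replicate 3 was the highest. The log2 fold change was -0.52 ± 0.09 (SE; edgeR adjusted p = 8.7e-04), a fold of 0.696 with a 95% interval of 0.608 to 0.797. MCM4, MCM6 and MCM7 form a subcomplex that can unwind DNA by itself in vitro.

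MCM6 (ENSG00000076003; chromosome 2, 135839626 to 135876426) had 189, 173 and 188 CPM under PBS and 153, 155 and 137 under cisplatin, 0.808-fold (0.721 to 0.906; edgeR adjusted p = 0.00758). MCM7 (ENSG00000166508; chromosome 7, 100092728 to 100101940), whose introns hold a microRNA cluster, had 661, 542 and 595 CPM and then 482, 507 and 452, 0.801-fold (0.705 to 0.910; edgeR adjusted p = 0.0110). For both genes the groups did not overlap, but in MCM7 the lowest PBS library and the highest cisplatin library lay close together. In edgeR, MCM7 just missed the threshold when PBS replicate 1 (-0.24, adjusted p = 0.0506) or cisplatin replicate 3 (-0.27, adjusted p = 0.0506) was left out.

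MCM5 (ENSG00000100297; chromosome 22, 35400063 to 35425430), which with MCM2 forms the gate through which DNA enters the ring, had 147, 139 and 139 CPM under PBS and 123, 116 and 115 under cisplatin. It fell to 0.832-fold (0.748 to 0.924; edgeR adjusted p = 0.0106), but leaving out cisplatin replicate 2 ended the call (adjusted p = 0.0545). MCM3 (ENSG00000112118; chromosome 6, 52264009 to 52284881), the neighbour of MCM5 in the ring, had 337, 316 and 370 CPM and then 312, 283 and 274. The highest cisplatin library of MCM3 was just under the lowest PBS library, and the fold was 0.850 (0.752 to 0.961; edgeR adjusted p = 0.0383). This call was the least secure of the 9: MCM3 did not pass in the fits that left out PBS replicate 1 (adjusted p = 0.0733), PBS replicate 3 (0.108), or either of cisplatin replicates 2 (0.136) and 3 (0.141), nor in edgeR with upper quartile (0.0597) or total count scaling (0.0699).

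MCM2 (ENSG00000073111; chromosome 3, 127598223 to 127622436), which also binds histones H3 and H4 at the fork, was the ring gene that did not pass. Its CPM were 438, 372 and 458 under PBS and 410, 404 and 354 under cisplatin, so the groups overlapped. The log2 fold change was -0.12 ± 0.09 (SE; edgeR adjusted p = 0.333). For the fold of MCM2, the 95% interval from 0.804 to 1.06 includes a value as low as that of MCM6. MCM2 shares 22.7% of its exonic bases with ENSG00000285600 on the opposite strand. That gene held 2.51 to 3.57 CPM under PBS and 2.19 to 3.74 under cisplatin, small beside MCM2, but the use of strand in the counting is not given in the sources used here. The deposited counts of MCM2 were fractional in all 6 libraries and those of MCM8 in 4, while the other 8 members had whole counts throughout.

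Within the ring the fitted log2 fold changes thus ran from -0.12 to -0.52. In each library, the log2 ratio of MCM4 to MCM2 in CPM was taken, a pair chosen after its values were seen as the 2 ends of the ring. The ratio was -1.46, -1.31 and -1.27 under PBS and -1.79, -1.77 and -1.66 under cisplatin, with no overlap (difference -0.40, exact two-sided permutation p = 0.1, the smallest that 3 against 3 libraries allow). Because the choice of the ends favours such a gap, this p-value is a description and not support. How often ratios of other gene pairs separate was not computed. As a share of summed ring TPM, MCM2 took 18.2% ± 0.664 under PBS and 20.3% ± 0.586 under cisplatin (SD, n = 3), with no overlap. MCM2 fell least of the ring genes, so a higher share follows from the same values and is not a separate observation. The shares of the other 5 ring genes overlapped between groups, that of MCM7 being 37.8% ± 2.38 and 36.4% ± 0.861. Summed over the ring, the level was 822, 707 and 970 TPM under PBS and 678, 661 and 600 under cisplatin.

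**Figure D2:**
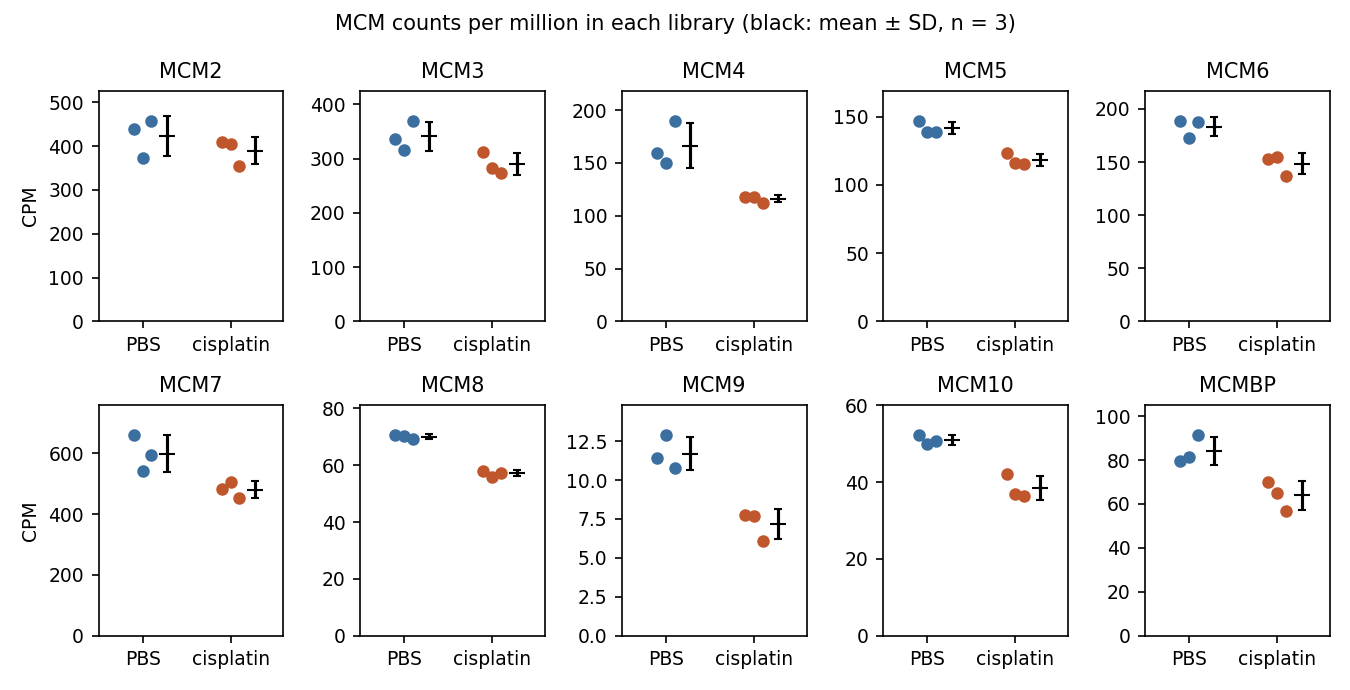
CPM of each MCM gene in each library, 1 panel per gene with its own axis from 0, with the mean ± SD of 3 in black. The cisplatin points lie below the PBS points in every panel except that of MCM2, where 354 to 410 CPM overlap 372 to 458 CPM.

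Outside the ring, MCM9 (ENSG00000111877; chromosome 6, 118813442 to 118935162) had the largest fall of the family in counts. On log2(TPM + 1) its log2 change was -0.42 (limma adjusted p = 0.139), and MCM10 (-0.61), MCMBP (-0.51) and MCM4 (-0.49) lay further below 0. The added 1 draws the changes of low genes toward 0, and MCM9 had 2.35 to 4.37 TPM per library. The part of this in that order was not tested. MCM9 had 11.4, 12.9 and 10.8 CPM under PBS and 7.77, 7.66 and 6.07 under cisplatin, from 78 to 196 counts per library. Every cisplatin library was well below the lowest PBS one. The log2 fold change was -0.72 ± 0.15 (SE; edgeR adjusted p = 0.00235), 0.605-fold with an interval of 0.486 to 0.754. Its partner MCM8 (ENSG00000125885; chromosome 20, 5950652 to 5998977) had 70.7, 70.4 and 69.2 CPM and then 58.1, 56.0 and 57.4. Both groups of MCM8 were tight, and the fold was 0.816 (0.731 to 0.910; edgeR adjusted p = 0.00744). With an offset for transcript length, under which 16.2% of all genes were lower, 3 of these 4 genes stayed called and MCM8 did not (-0.11, edgeR adjusted p = 0.251), and its transcripts, at 4366 to 4673 bases, were the longest of the family.

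The log2 ratio of MCM8 to MCM9 in CPM was 2.62, 2.44 and 2.66 under PBS and 2.88, 2.85 and 3.21 under cisplatin, so this ratio did not overlap either (exact two-sided permutation p = 0.1, the smallest possible). The pair was set side by side because the proteins act together, with both values already known, so this p-value too is a description. How often ratios of other gene pairs separate was not computed.

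MCM10 (ENSG00000065328; chromosome 10, 13161554 to 13211104) had 52.3, 50 and 50.6 CPM under PBS and 42.1, 36.9 and 36.3 under cisplatin. It fell to 0.752-fold (0.661 to 0.856; edgeR adjusted p = 0.00284). MCMBP (ENSG00000197771; chromosome 10, 119829404 to 119892556) had 79.5, 81.6 and 91.5 CPM and then 70.1, 64.8 and 57.0, 0.756-fold (0.658 to 0.869; edgeR adjusted p = 0.00498). Neither gene's groups overlapped, and the calls of MCM10, MCMBP and the ring gene MCM6 were kept under all 17 alternatives tried. Relative to MCMBP the summed ring level was 30.4, 25.1 and 28.1 TPM per TPM under PBS and 28.7, 32.9 and 32.4 under cisplatin, which overlapped.

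Set against the ring as a whole, the other 4 genes had the lower mean of log2 CPM by 2.68, 2.49 and 2.7 under PBS and by 2.73, 2.80 and 2.81 under cisplatin. The groups did not overlap, but 2.7 under PBS and 2.73 under cisplatin lay close together, and the shift was 0.159. MCM9 had a log2 fold change of -0.72, against -0.29, -0.41 and -0.40 for MCM8, MCM10 and MCMBP, so it weighs most in that shift. The contrast was not computed without MCM9, and no test over the members was made. The fold intervals of MCM8, MCM9, MCM10 and MCMBP all overlapped those of MCM4, MCM6 and MCM7. They also overlapped those of MCM3 and MCM5, but MCM9 (0.486 to 0.754) only just reached their lower ends (0.752 and 0.748). The interval of MCM2 (0.804 to 1.06) was overlapped by those of MCM8, MCM10 and MCMBP and not by that of MCM9.

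**Figure D3:**
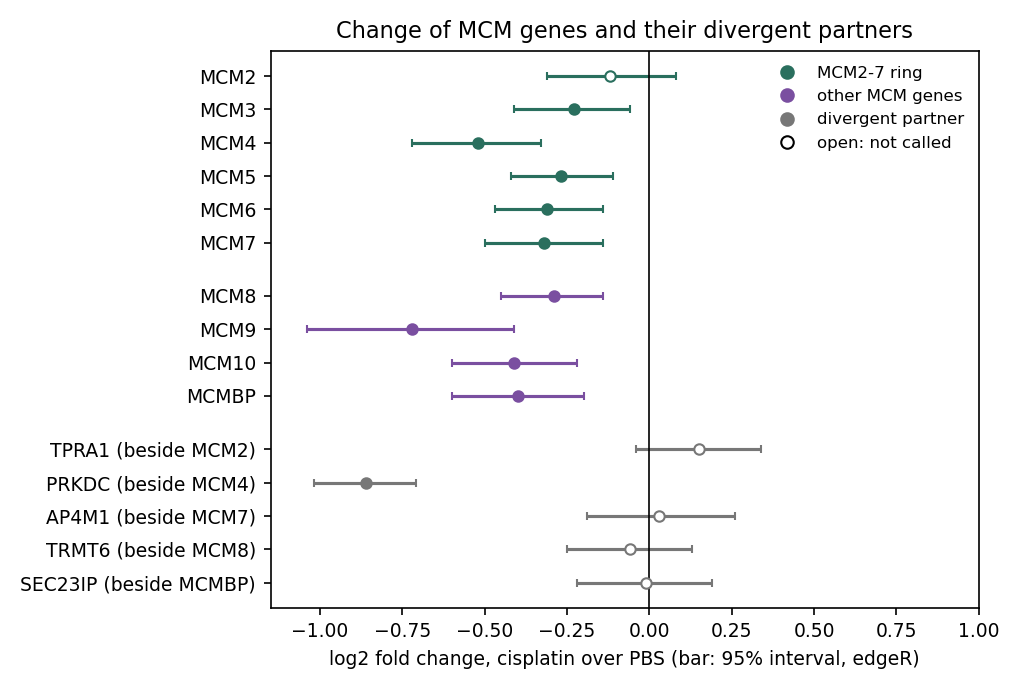
Log2 fold change (cisplatin over PBS) with its 95% interval from edgeR for the 6 ring genes, the 4 other MCM genes and the 5 tested divergent partners; open circles were not called. Among the MCM genes only the interval of MCM2 reaches above 0 (-0.31 to 0.08), and among the partners PRKDC at -0.86 is the one that fell.

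Several MCM genes start next to another gene that is read in the opposite direction, within 1000 bases, and 1 of the 5 tested partners was called, as lower, where 19.3% of all tested genes were. PRKDC, which encodes the catalytic subunit of the DNA-dependent protein kinase of end joining, starts 2 bases from MCM4 and was the partner that fell. It had 513, 542 and 574 CPM under PBS and 300, 293 and 301 under cisplatin, 0.549-fold (0.493 to 0.612; edgeR adjusted p = 8.8e-06). With the transcript length offset its log2 change was -0.56 in place of -0.86 and was still called (adjusted p = 2.9e-05), whereas MCM4 moved from -0.52 to -0.56.

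TPRA1, 44 bases from the start of MCM2, had 61.3 ± 6.29 CPM under PBS and 67.8 ± 2.48 under cisplatin (edgeR adjusted p = 0.198). TRMT6, a subunit of a tRNA methyltransferase 94 bases from MCM8, had 42.8 ± 2.82 and 41.0 ± 2.24 CPM (edgeR adjusted p = 0.614). SEC23IP beside MCMBP had 37.7 ± 3.47 and 37.3 ± 2.58 CPM (edgeR adjusted p = 0.922), and AP4M1, an adaptor subunit beside MCM7 that overlaps 8.9% of its exonic bases, 23.5 ± 2.83 and 24.0 ± 0.419 CPM (edgeR adjusted p = 0.824). The 95% intervals of their folds were 0.972 to 1.27, 0.840 to 1.09, 0.857 to 1.14 and 0.874 to 1.2 in that order. For SEC23IP the length offset gave 0.25 (edgeR adjusted p = 0.0480), the other direction. The antisense gene ENSG00000253194 beside MCM9 was under 1 CPM in every library and was not tested.

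Promoter sequence was examined because 5 of the 6 ring members fell and ring genes are known E2F targets. RefSeq windows on GRCh38.p14, from 250 bases before to 50 after a gene's start, were matched for 8 of the 10 genes; MCM4 and MCM5 had no entry. Exact matches of TTTCCCGC, TTTGGCGC, TTTGCCGC or TTTCGCGC on either strand, 4 written forms of the E2F site, were found in 6 of these 8 genes: MCM2, MCM3, MCM6, MCM7, MCM8 and MCMBP. Of all 27305 genes with a window, 3.99% had one. These include genes that did not pass the low-count filter, and the share among tested genes was not computed. When only the bases before the start were read, 4 of 8 MCM genes and 3.40% of all genes had one. The 4 promoters with a match before the start are printed from 250 bases before the start to the base before it, 5′ to 3′, with the matched letters in capitals, and that of MCM10 is printed as one with no match. The third, MCM7, is the first of 3 starts listed for that gene, and the MCMBP window is that of its second listed start. Both MCMBP windows lie inside the gene as GENCODE 29 draws it, whose start on the reverse strand is at 119892556 beside SEC23IP, so they are starts within the gene and not that shared start. Without MCMBP, 5 of 7 genes had a match in the whole window and 3 of 7 before the start. Only MCMBP was left out there, although the 3 MCM7 windows also lie inside their GENCODE 29 gene, which starts at 100101940 on the reverse strand. The starts used for MCM2 and MCM3 lie inside their genes as well.
MCM6, chr2:135876444-135876693, reverse strand: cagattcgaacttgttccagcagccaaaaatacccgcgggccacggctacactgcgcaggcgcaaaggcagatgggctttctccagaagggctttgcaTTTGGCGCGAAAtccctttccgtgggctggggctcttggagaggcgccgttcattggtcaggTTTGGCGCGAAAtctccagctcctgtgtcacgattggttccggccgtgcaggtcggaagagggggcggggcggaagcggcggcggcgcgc
MCM3, chr6:52284743-52284992, reverse strand: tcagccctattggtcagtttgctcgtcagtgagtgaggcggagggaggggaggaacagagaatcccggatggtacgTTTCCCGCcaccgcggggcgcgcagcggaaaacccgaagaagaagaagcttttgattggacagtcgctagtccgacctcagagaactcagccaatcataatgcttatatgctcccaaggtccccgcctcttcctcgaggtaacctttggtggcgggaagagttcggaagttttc
MCM7, chr7:100101398-100101647, reverse strand: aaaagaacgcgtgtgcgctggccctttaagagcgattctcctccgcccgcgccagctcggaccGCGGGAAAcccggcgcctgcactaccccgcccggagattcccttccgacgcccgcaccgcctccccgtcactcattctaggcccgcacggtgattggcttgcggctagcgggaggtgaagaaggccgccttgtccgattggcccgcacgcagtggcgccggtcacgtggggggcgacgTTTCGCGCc
MCMBP, chr10:119872844-119873093, reverse strand: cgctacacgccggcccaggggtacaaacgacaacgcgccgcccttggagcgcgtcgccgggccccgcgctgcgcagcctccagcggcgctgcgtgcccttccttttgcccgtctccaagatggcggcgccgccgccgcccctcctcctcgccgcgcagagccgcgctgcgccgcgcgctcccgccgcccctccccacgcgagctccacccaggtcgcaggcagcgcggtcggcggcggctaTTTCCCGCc
MCM10, chr10:13161308-13161557, forward strand: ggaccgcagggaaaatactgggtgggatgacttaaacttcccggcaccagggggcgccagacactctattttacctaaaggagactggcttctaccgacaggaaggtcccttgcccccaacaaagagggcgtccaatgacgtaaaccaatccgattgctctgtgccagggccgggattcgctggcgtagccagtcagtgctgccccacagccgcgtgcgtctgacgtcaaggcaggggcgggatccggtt

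In MCM6 the capitals form 2 runs of identical letters, each holding TTTGGCGC on the strand as printed and TTTCGCGC on the other, which overlap. They begin at positions -152 and -90, counted with the start base as 0. In MCM7 the matches begin at -187 and -9, in MCM3 at -174 with another from -4 to 3 that spans the start, and in MCMBP at -9. MCM2 had a pair of overlapping TTTCGCGC matches just after its start (positions 2 to 13), and MCM8 had 1 match from 26 to 33. MCM2 thus held these letters and was not called, and MCM9 and MCM10 held none of them in this window and fell. No test related the letters to the changes. The letters CCAAT, known as the site of NF-Y, were found on either strand in 6 of 8 MCM genes (MCM3, MCM6, MCM7, MCM8, MCM9 and MCM10) and in 39.7% of all genes. The CHR forms TTTGAA or TTCGAA were found in 1 of 8, MCM6, and in 19.5% of all genes. A match is a description of letters and not of binding.

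The abundance-weighted transcript length that the authors deposited for each gene reads which transcripts were used. It overlapped between the groups for all 10 genes. An exact two-sided permutation test gave p from 0.2 to 1 for 3 against 3 libraries (adjusted p from 0.8 to 1 over the 10 genes). The smallest p this design allows is 0.1, above the threshold for a call, so no gene could have passed whatever its lengths. The test therefore cannot decide whether transcript use changed. MCM6 varied least between libraries, from 3726 to 3753 bases, and MCM7 ran from 2416 to 2452. MCM4, with 24 listed transcripts, ran from 2000 to 2303 bases under PBS and from 1968 to 2150 under cisplatin. MCM9 varied most, from 2385 to 3890 bases, and TPM depends on that length. Whether counts or TPM read MCM9 better was not tested. In TPM the groups of MCM2, MCM3 and MCM9 overlapped, with MCM9 at 3.96, 2.35 and 2.41 TPM under cisplatin, and limma on log2(TPM + 1) called 2 ring genes (MCM6 and MCM7) and 2 others (MCM10 and MCMBP) lower, where 11.0% of all genes were called lower.

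Genes that act with the ring, that act with MCM8 and MCM9, or that regulate ring gene transcription were set in 5 lists. Of these 55 genes, all tested, 8 rose and 7 fell, and the median change in log2 was -0.06. Higher calls were made for 18.9% of all tested genes and lower calls for 19.3%. Most of the 55 were not called, and the same holds for all tested genes, of which 38.2% were called in either direction. These lists were drawn up with earlier results of these data known.

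Licensing factors, which load the ring, gave 1 higher and 0 lower of 9, with a median of 0.11. With the length offset this list gave 2 higher and 0 lower. The origin recognition subunit ORC3 rose from 54.5 ± 1.82 to 74.6 ± 5.2 CPM, or by 0.45 in log2 (edgeR adjusted p = 0.00112). The loaders CDC6 and CDT1 had log2 fold changes of -0.10 and 0.22 and the inhibitor of loading GMNN 0.11, none of them called (edgeR adjusted p = 0.341, 0.0754 and 0.311). In the same libraries 5 of 6 ring genes fell.

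Helicase activation genes, which include GINS, CDC45 and the kinase CDC7 with its DBF4 subunits, gave 3 higher and 1 lower of 18 (median -0.09). With the length offset the balance turned, to 2 higher and 3 lower. DBF4B, an activator of CDC7, went from 36.6 ± 3.94 up to 49.8 ± 1.94 CPM, a log2 change of 0.45 (edgeR adjusted p = 0.00271). POLE4, a small subunit of DNA polymerase epsilon, rose by 0.44 (edgeR adjusted p = 0.0108), but did not pass with the length offset (0.25, adjusted p = 0.0544). DONSON, which delivers GINS to the ring, rose by 0.23 (edgeR adjusted p = 0.0380). DONSON did not pass in edgeR when any of 4 libraries was left out, PBS replicate 1 (adjusted p = 0.111), PBS replicate 3 (0.0641), cisplatin replicate 1 (0.155) and cisplatin replicate 2 (0.101). DONSON was also lost with the length offset (0.13, edgeR adjusted p = 0.211), without the low-count filter (0.0521), with DESeq2 (0.0557) and with limma on log2(TPM + 1) (0.226). WDHD1, which ties the helicase to polymerase alpha, fell by 0.31 (edgeR adjusted p = 0.00850). Leaving out cisplatin replicate 1 (adjusted p = 0.0540) or using the length offset (-0.19, 0.101) ended the edgeR call of WDHD1. CDC45 itself had -0.13 (edgeR adjusted p = 0.254), and GINS1 to GINS4 ran from -0.18 to 0.25, none called.

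Fork protection and ring unloading genes gave 1 higher and 1 lower of 9 (median -0.16), and 2 higher and 2 lower with the length offset. TRAIP, a ubiquitin ligase that marks the ring for removal from DNA, rose most of all 55 genes. It had 14.1, 13.8 and 13.9 CPM under PBS and 28.2, 25.2 and 21.7 under cisplatin, 1.79-fold (1.50 to 2.13; edgeR adjusted p = 2.3e-04), and stayed called under all 17 alternatives. CLSPN, the claspin mediator at the fork, fell from 107 ± 8.6 to 83.9 ± 0.642 CPM (edgeR adjusted p = 0.00423), but did not pass with the length offset (-0.12, adjusted p = 0.239).

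Partners of MCM8 and MCM9 in recombination gave 3 higher and 1 lower of 8 (median 0.09). HROB, which binds and stimulates the MCM8 and MCM9 helicase, rose from 17.8 ± 2.26 to 22.8 ± 1.28 CPM while both of those genes fell (0.37 ± 0.11 in log2, SE; edgeR adjusted p = 0.0229). HROB did not pass when PBS replicate 2 was left out (edgeR adjusted p = 0.0645), nor without any 1 of PBS replicate 3 (0.0539) and cisplatin replicates 1 (0.0710) and 2 (0.0673). Of the RPA subunits, which coat single-stranded DNA, RPA3 rose by 0.51 (edgeR adjusted p = 0.00352) and RPA2 by 0.22 (edgeR adjusted p = 0.0402), the latter not called when any library except cisplatin replicate 3 was left out (adjusted p from 0.0514 to 0.181). RPA2 was 0.10 with the length offset (edgeR adjusted p = 0.280) and 0.10 with limma on log2(TPM + 1) (adjusted p = 0.485), and was lost with DESeq2 (0.0585) and without the low-count filter (0.0646). NBN, of the complex that senses DNA breaks, fell from 51.9 ± 7.88 to 34.5 ± 5.22 CPM (edgeR adjusted p = 0.00313).

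E2F factors and pocket proteins, regulators of ring gene transcription, gave 0 higher and 4 lower of 11 (median -0.24), with 2 lower when cisplatin replicate 1 was left out and 1 lower with limma on log2(TPM + 1). The repressor E2F7 fell from 32 ± 3.19 to 21.0 ± 0.939 CPM (-0.61 ± 0.10 in log2, SE; edgeR adjusted p = 6.6e-04), and the activator E2F3 from 45.8 ± 3.63 to 34.1 ± 1.35 (edgeR adjusted p = 0.00254). With the length offset E2F7 was at -0.38 (adjusted p = 0.00773) and E2F3 at -0.24 in place of -0.43 (adjusted p = 0.0315), both still called by edgeR. The pocket protein RBL1 fell by 0.37 (edgeR adjusted p = 0.0121). Leaving out cisplatin replicate 1 (adjusted p = 0.0642) or using the length offset (-0.13, 0.341) ended the edgeR call of RBL1. E2F5 fell by 0.46 (edgeR adjusted p = 0.0331). E2F1 had -0.24 and did not pass (edgeR adjusted p = 0.0538).

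**Figure D4:**
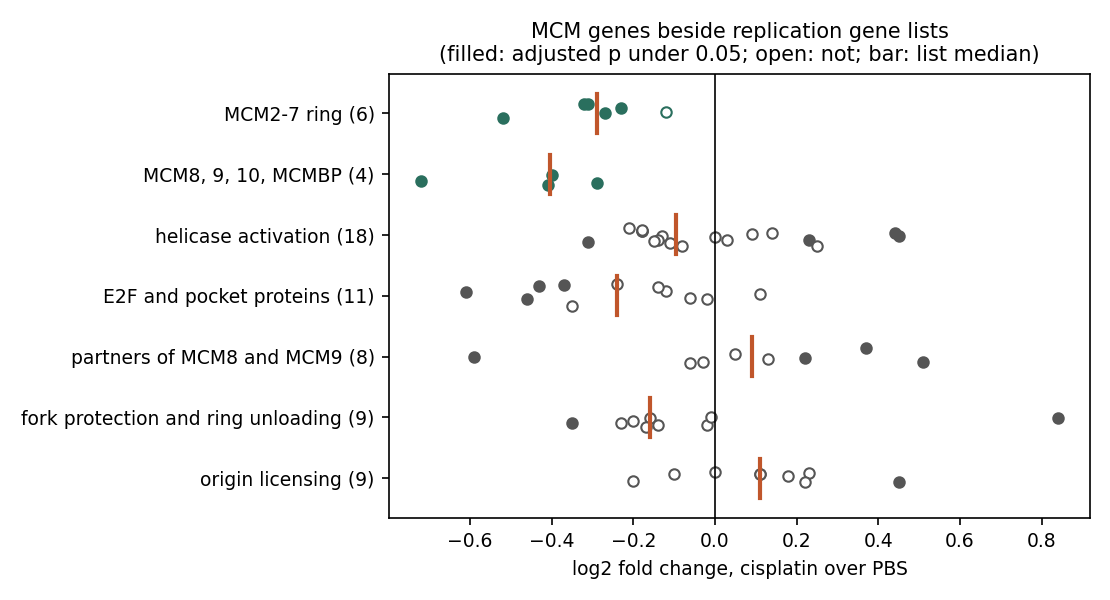
Log2 fold change (cisplatin over PBS) of every gene in the MCM sets and the 5 replication lists, with filled points for called genes, open points for the rest and a bar at each median. The 2 MCM medians, -0.29 and -0.41, lie left of those of the lists, which run from -0.24 to 0.11, and points of the licensing list lie on both sides of 0.

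Genes with the most similar pattern to the ring were found by the root mean square difference of centred log2 CPM over the 6 libraries, among 10535 protein-coding genes whose mean reached 5 CPM. The 5 nearest to the ring mean were TGFBRAP1, DACT1, SART3, CS and PIP4K2B, at 0.0172 to 0.0210, where the median gene was at 0.214. They fell by 0.27 to 0.30 on the log2 scale, which the choice fixes. With the length offset CS was still called (-0.25, edgeR adjusted p = 0.0122), and the other 4 were not, TGFBRAP1 and PIP4K2B both having -0.06. Of the ring genes themselves MCM6 was nearest to the mean profile (0.0274) and MCM4 farthest (0.129). MCM8 ranked 416th, MCM10 699th, MCMBP 755th and MCM9 6564th of the 10535. The 5 nearest to MCM10 were SRRD, NSMAF, LUC7L2, KLHL2 and ACTR3B, at 0.0305 to 0.0399, and among MCM genes MCM5 ranked 193rd, MCM2 2827th and MCM9 3242nd of 10540. With 6 libraries in 2 groups, likeness rests mostly on the group difference and on library scaling that all genes share.

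**Figure D5:**
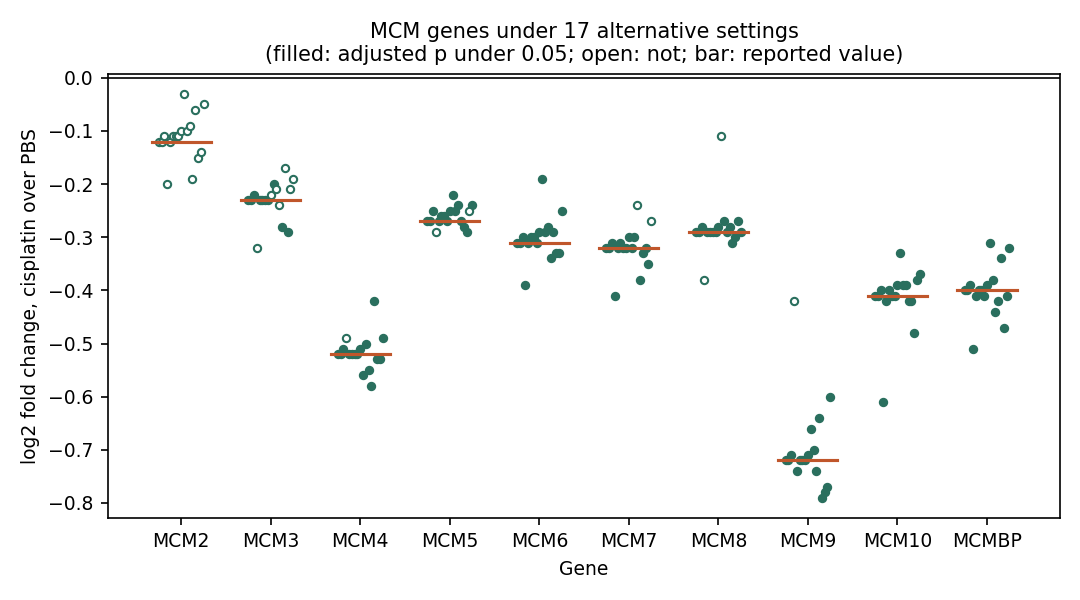
Log2 fold change (cisplatin over PBS) of each MCM gene under 17 alternative settings, filled where the adjusted p was under 0.05 and open where not, with a bar at the reported value. All 170 points lie below 0; MCM2 is open throughout, and MCM3 is open in 7 settings.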

How the data were processed

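Per the labels' protocols, TRIzol was used for RNA and the Fast RNA-seq kit of ABclonal for the libraries. The authors deposited, per the file headers, expected counts per gene (not normalized, not all whole), TPM scaled by transcript length to a fixed total, FPKM (not used here) and transcript lengths, in the layout of an RSEM table. STAR 2.7.9 and GRCh38 are named in the submitters' processing notes; the sources used here do not give the annotation, strand setting or quantifier version. Symbols were found for 61399 of 61552 genes, and positions came from GENCODE 29.

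Rounded expected counts entered the quasi-likelihood test of edgeR 4.0.16 (R 4.3.3), with TMM scaling and group as the sole term. Genes were kept by filterByExpr (minimum count 10, minimum total 15), and p-values were adjusted by Benjamini-Hochberg over 15063 genes and called under 0.05. CPM use TMM-scaled library sizes, and the standard error is the log2 fold change over the square root of F. Totals of 9121180 to 16724285 counts set the precision, and no pair of libraries held identical counts. Log2 CPM used a prior count of 2. Alternatives were other scalings, filters, a replicate block, leaving out each library, protein-coding genes only, DESeq2 1.42.0, limma-voom and limma 3.58.1 on log2(TPM + 1), and a per-library trend on transcript length as offset. Same-numbered libraries did not deviate together (correlation across genes 0.0658, 0.123 and -0.076), so the numbers were not taken as pairs.

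The members and lists were chosen with earlier results of these data known. Named were all 10 members, divergent partners within 1000 bases, genes sharing at least 10% of a member's exonic bases, the 5 nearest in pattern, and up to 3 called genes per list and direction; other genes, among them E2F1, E2F5, CDC6, CDT1, GMNN, CDC45 and GINS1 to GINS4, were named after their values were seen. In simulated counts for 15063 genes with 200 changed, 63.7% of 1.5-fold changes were recovered and 6.32% of calls were false. In the data 38.2% of tested genes were called, and the called MCM genes other than MCM9 changed by less than 1.5-fold. These rates therefore cannot be carried over to the MCM calls.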

Additional observations from a re-analysis of the deposited data

How the results depend on the processing

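All 170 values of the 10 MCM genes under 17 alternatives were below 0, and 138 of the 153 values of the 9 called genes were called lower. The ring's count of 5 lower was 2 with limma on log2(TPM + 1), and 3 to 5 when a library was left out (3 when that was PBS replicate 1 or either of cisplatin replicates 2 and 3). The other MCM genes' count of 4 was 2 on log2(TPM + 1), where all genes gave 1653 lower and 1208 higher in place of 2901 and 2851; the median of all genes was -0.071 on that scale. The same scale called 3 of the 55 replication genes higher in place of 8. The length offset called 9 of the 55 lower in place of 7, and 8 higher. With a library left out these lists gave 4 to 8 lower and 5 to 9 higher (4 lower and 5 higher without cisplatin replicate 1, and 5 higher without PBS replicate 3). By list, leaving out cisplatin replicate 1 gave 0 lower in helicase activation in place of 1, leaving out any of PBS replicates 2 and 3 and cisplatin replicates 1 and 2 gave 1 higher among partners of MCM8 and MCM9 in place of 3, and log2(TPM + 1) gave 0 higher in licensing in place of 1. With the replicate block 5 ring and 4 other MCM genes were called lower, and no MCM call changed. The length offset took MCM6 from -0.31 to -0.19, and log2(TPM + 1) took MCM9 from -0.72 to -0.42 (adjusted p = 0.139) and left MCM4 (0.0884), MCM5 (0.0554) and MCM8 (0.0619) uncalled in limma. Also on that scale ORC3 (0.0617), DBF4B (0.19, adjusted p = 0.339), WDHD1 (0.0754), HROB (0.491) and E2F3 (0.0712) were not called; the cause was not tested.

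Values near 0 changed sign. AP4M1 ran from -0.05 (without PBS replicate 3) to 0.12 when a library was left out, and was -0.07 on log2(TPM + 1) and -0.04 with the length offset. SEC23IP was 0.01 with upper quartile scaling, 0.00 with total counts, 0.25 with the length offset, and from -0.08 to 0.06 when a library was left out, above 0 without PBS replicate 3 (0.06) or cisplatin replicate 3 (0.04). ENSG00000285600 was 0.06 without PBS replicate 1, 0.06 without cisplatin replicate 1 and 0.04 without cisplatin replicate 3. MCM9, with 78 to 196 counts per library, is the member where depth limits precision most.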
